A study of Homo sapiens with 6 samples.

Results

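AKR1B10 and its relatives among the aldo-keto reductases were followed in RNA-seq libraries of HCT116, an established line from a human colorectal carcinoma, with and without oxaliplatin. The family comprised 7 genes of the 27942 in the table, AKR1A1, AKR1B1, AKR1B10, AKR1B15, AKR1C1, AKR1C2 and AKR1C3, taken by gene symbol. They were chosen around AKR1B10, which had been selected on its rise in the same oxaliplatin libraries, so the values below describe that contrast, calls are only counted, and no p-value is given for them. The study profiled 3 libraries of non-treated cells (NT) and 3 of cells exposed to 0.5 µM oxaliplatin for 24 h (OXA), a platinum drug that forms DNA adducts. All 6 came from the same line, with polyadenylated RNA in stranded libraries, and no other line, dose or time was analysed here.

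Aldo-keto reductases are soluble NADPH-dependent enzymes that turn aldehydes and ketones into alcohols. They act on reactive aldehydes from lipid peroxidation, on sugars, on retinal, on steroids and prostaglandins, and on drugs that carry a carbonyl group. Several of them are known targets of NRF2, the transcription factor of the oxidative stress response. AKR1B10 is best known as a retinal and aliphatic aldehyde reductase of the intestinal epithelium that is abundant in several carcinomas.

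Library totals lay between 32979521 and 40967880 counts. NT library 1 stood apart, with a chi-square per gene of 83.1 and 75.7 against the other NT libraries, where the remaining pairs within a group had 19.2 to 29.6. The epithelial markers EPCAM, KRT8, KRT18, KRT19 and CDH1 and the intestinal factor CDX2 were present in all 6 libraries, EPCAM with 8451 to 10828 counts and CDX2 with 434 to 599. VIL1 had 39 to 95 counts and CEACAM5, an antigen of the colorectal epithelium, at most 2. Of the markers of other cell types, PTPRC had at most 2 counts, CD3E at most 1, PECAM1 1 to 7, VWF 13 to 29 and COL1A1 107 to 273, while DCN had 0 in all libraries. CDKN1A, the cell cycle inhibitor induced by p53, rose from 5143 ± 907 to 39110 ± 2895 normalized counts (mean ± SD, n = 3). Its log2 fold change of OXA over NT (log2FC) was 2.93, with an adjusted p in edgeR of 0.000445. Normalized counts are raw counts scaled by TMM (trimmed mean of M values) library factors. In such bulk libraries a change in the number of expressing cells and a change in RNA per cell cannot be told apart.

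The 7 genes lie at 3 places of the genome (GRCh38 coordinates of GENCODE release 44). AKR1A1 is alone at chr1:45550543-45570049 on the plus strand. On chromosome 7, AKR1B1 (chr7:134442356-134459284, minus strand) is followed by AKR1B10 (chr7:134527567-134541412, plus strand) after 68.3 kb, and AKR1B15 (chr7:134549110-134579875, plus strand) starts 7.70 kb beyond AKR1B10. On chromosome 10, AKR1C1 (chr10:4963253-4983283, plus strand), AKR1C2 (chr10:4987775-5018031, minus strand) and AKR1C3 (chr10:5035354-5107686, plus strand) follow each other with gaps of 4.49 kb and 17.3 kb.

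Coding sequences were aligned end to end, and identity was counted over all columns, gaps included. AKR1C1 and AKR1C2 were identical at 98.0% of aligned columns, AKR1C1 and AKR1C3 at 91.7%, and AKR1C2 and AKR1C3 at 91.2%. AKR1B10 shared 86.5% with AKR1B15 (893 of 1032 columns) and 76.3% with AKR1B1. The coding sequence of AKR1B15 has 1032 bases and that of AKR1B10 948, so gaps lower the first of these percentages. It cannot be ranked against those of the AKR1C genes. Reads were paired and 100 bases long, and the windows below stand for single reads, not for pairs. The share of 100-base windows of the canonical transcript found unaltered in another gene was 27.8% for AKR1C2, 12.6% for AKR1C1 and 7.82% for AKR1C3. It was 1.97% for AKR1B10, whose shared windows occur in AKR1B15 and the pseudogene AKR1B10P1, 1.10% for AKR1B15, and 0% for AKR1A1 and AKR1B1. The counts of AKR1C1 and AKR1C2 in particular depend on how reads that fit both genes were divided.

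The bases just before the start sites show the same kinship among the AKR1C genes, and they are given so that these promoters can be set beside each other. RefSeq promoters (build GRCh38.p14) matched 5 of the 7 genes, with no entry for AKR1B10 and AKR1B15. A single RefSeq start was used per gene. The starts of AKR1C2 (chr10:5003857) and AKR1C3 (chr10:5048781) lie well inside the gene spans given above. Bases before other starts of these genes were not searched. The 250 bases before the start of AKR1C1 and AKR1C2 were 96.5% identical, and those of AKR1C1 and AKR1C3 72.3%. The last 100 bases before the start are printed 5′ to 3′ on the strand of the gene, with capitals for the letters CCAAT or TATAAA on either strand. The stretches are chr10:4963315-4963414 (plus strand) for AKR1C1, chr10:5003858-5003957 (minus strand) for AKR1C2, chr10:5048681-5048780 (plus strand) for AKR1C3, chr7:134459101-134459200 (minus strand) for AKR1B1 and chr1:45550726-45550825 (plus strand) for AKR1A1.
AKR1C1: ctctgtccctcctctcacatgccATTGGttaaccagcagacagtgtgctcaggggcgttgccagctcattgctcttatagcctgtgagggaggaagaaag
AKR1C2: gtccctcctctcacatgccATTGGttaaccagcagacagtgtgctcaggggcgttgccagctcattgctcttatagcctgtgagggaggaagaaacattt
AKR1C3: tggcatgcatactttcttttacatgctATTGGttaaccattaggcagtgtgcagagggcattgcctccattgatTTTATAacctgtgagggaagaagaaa
AKR1B1: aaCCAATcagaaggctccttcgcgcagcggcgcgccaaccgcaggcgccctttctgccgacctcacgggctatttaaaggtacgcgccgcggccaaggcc
AKR1A1: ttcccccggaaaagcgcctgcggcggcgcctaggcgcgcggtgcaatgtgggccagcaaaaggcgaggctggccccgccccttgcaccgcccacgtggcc
A CCAAT box on the opposite strand stood 77 to 73 bases before the start of AKR1C1, 81 to 77 before that of AKR1C2 and 73 to 69 before that of AKR1C3. AKR1B1 had CCAAT on its own strand 98 to 94 bases before the start, and AKR1A1 had none in 250 bases. CCAAT occurred in 33.0% of the 27305 RefSeq promoters of the same length. The letters TATAAA were found for AKR1C3, on the opposite strand 26 to 21 bases before the start, and in 11.1% of all promoters. The antioxidant response element core TGACNNNGC (11.0% of all promoters) and the AP-1 motif TGANTCA (6.60%), which can overlap it, were not found on either strand in the 250 bases of these 5 genes. Neither was the p53 decamer, searched by its consensus letters (5.53%, and 0.0293% for a pair of decamers 0 to 13 bases apart).

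AKR1B10, on which the choice rested, had the widest gap between the groups. Raw counts of 10, 7 and 17 were found in NT libraries 1, 2 and 3, against 87, 68 and 121 in the OXA libraries. The groups did not overlap, and the lowest OXA library held several times the count of the highest NT library. Normalized counts averaged 11.0 ± 4.17 (SD, n = 3) in NT and 92.0 ± 16.9 in OXA, a log2FC of 3.04 ± 0.32 SE, or 8.22-fold. Without NT library 1 the log2FC was 2.98. Between libraries of the same number the log2 ratio was 3.08, 3.18 and 2.72. In both groups library 2 had the lowest and library 3 the highest normalized AKR1B10 count. This log2FC ranked 10 among the 13727 genes that passed the filter on low counts, a filter that AKR1B10 passed through its OXA counts.

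On the deposited normalized scale, which uses a factor for each gene as well as for each library, AKR1B10 had a mean of 12.7 ± 6.30 in NT and 89.8 ± 12.8 in OXA, a ratio of means of 7.09. There its factor ran from 0.752 to 1.63 times the median factor of the library. Leaving out 1 library at a time gave log2FCs from 2.79 to 3.34, and 8 other settings from 2.89 to 3.06.

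**Figure D1:**
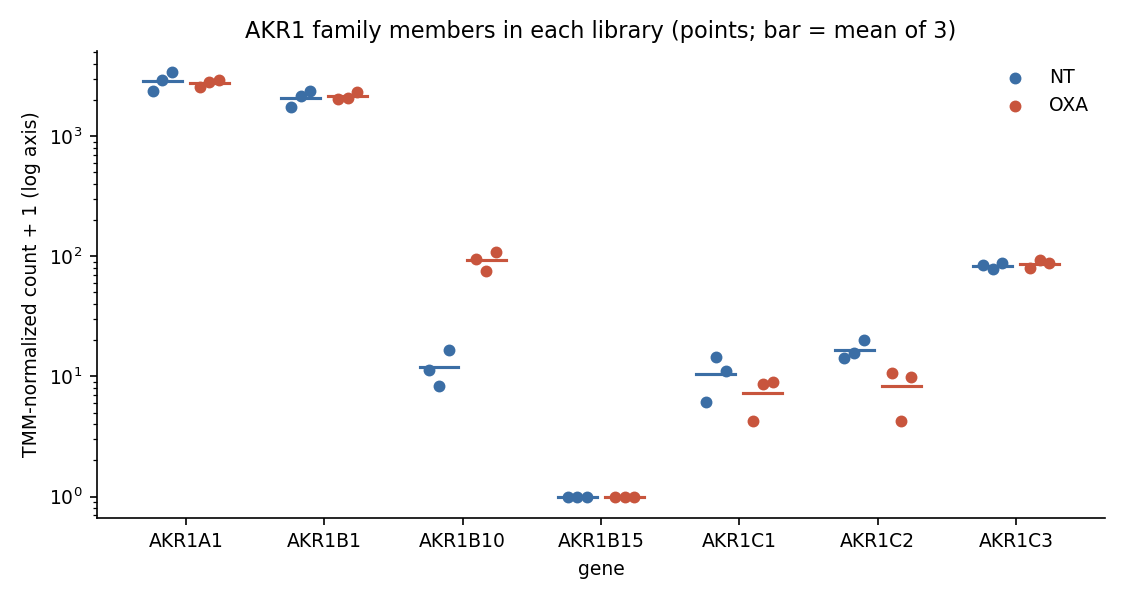
TMM-normalized counts plus 1 (vertical log axis) of the 7 aldo-keto reductases (horizontal axis) in each NT (blue) and OXA (red) library, with a bar at the mean of 3. AKR1B10 goes from a mean of 11.0 to 92.0 with no overlap, AKR1C2 lies lower in OXA, AKR1B15 is at 0 and AKR1A1, AKR1B1 and AKR1C3 overlap between the groups.

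The other AKR1B genes had like values in the 2 groups. AKR1B1, the aldose reductase that makes sorbitol from glucose, had 1693, 2056 and 2611 raw counts in NT against 1889, 1897 and 2615 in OXA. The ranges overlapped, with library 3 highest in both groups. Normalized counts averaged 2083 ± 329 in NT and 2147 ± 159 in OXA (log2FC 0.04 ± 0.13 SE), and the sign turned on leaving out either NT library 1 or OXA library 3. AKR1B15, the closest relative of AKR1B10 and a ketosteroid reductase, had 0 counts in all 6 libraries, which allows up to 3 counts in a library by counting error alone.

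AKR1A1, the general aldehyde reductase, was the most abundant member. Its raw counts were 2323, 2796 and 3742 in NT and 2385, 2564 and 3297 in OXA, with overlapping ranges and library 1 lowest after normalization in both groups. Normalized counts averaged 2898 ± 520.2 in NT and 2771 ± 179.8 in OXA (log2FC -0.06 ± 0.14 SE). The sign turned when NT library 3 was left out.

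The AKR1C genes encode hydroxysteroid dehydrogenases that inactivate or activate steroid hormones, and AKR1C3 also makes prostaglandins of the F series. AKR1C3 had 81, 74 and 95 raw counts in NT against 73, 84 and 97 in OXA. The groups overlapped closely. On the log2 scale, pooled over both groups, its spread within groups was the smallest of the detected members (SD 0.097). Within OXA alone its log2 deviations from the group mean (-0.113 to 0.098) were wider than those of AKR1A1 (-0.101 to 0.086). Normalized counts averaged 82.1 ± 4.93 in NT and 85.7 ± 6.34 in OXA (log2FC 0.06 ± 0.18 SE), and the sign turned when NT library 2 was left out.

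AKR1C2, which reduces dihydrotestosterone, was not called and had lower counts in OXA. It had 13, 14 and 21 raw counts in NT against 9, 3 and 10 in OXA. The highest OXA library was below the lowest NT library, by few counts. Normalized counts averaged 15.7 ± 3.09 in NT and 7.31 ± 3.52 in OXA, a log2FC of -1.08 ± 0.43 SE, or 2.11-fold lower. AKR1C2 passed the filter on low counts through its NT libraries. On the deposited normalized scale it had 13.2 ± 6.60 in NT and 9.09 ± 5.98 in OXA, where the groups overlapped, and the log2FC with the factors of that scale was -0.59.

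AKR1C1, which inactivates progesterone, had 5, 13 and 11 raw counts in NT against 3, 7 and 9 in OXA. The groups overlapped, and it was under the filter on low counts, so no fold change was fitted. Normalized counts averaged 9.55 ± 4.22 in NT and 6.30 ± 2.65 in OXA. Summing with AKR1C2 removes the division of reads between the 2 genes. Both also share 100-base windows with AKR1C3, so a division with that gene remains. Raw sums were 18, 27 and 32 in NT and 12, 10 and 19 in OXA, and these overlapped. The normalized sums of 25.2 ± 5.93 in NT and 13.6 ± 3.06 in OXA did not overlap, between 18.4 and 29.2 in NT and between 10.9 and 16.9 in OXA.

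Of the 7 members 5 passed the filter on low counts. In edgeR's quasi-likelihood test with a Benjamini-Hochberg adjusted p under 0.05, 1 of them, AKR1B10, was called higher in OXA and 0 were called lower, where 2.78% of the 13727 genes tested were called higher and 2.29% lower. In a fit that blocked on the replicate number the counts were again 1 and 0, beside 12.1% of all genes higher and 10.9% lower. Groups that did not overlap were found for 1 member higher in OXA, AKR1B10, and 1 lower, AKR1C2, and for 14.5% of all genes tested in the higher and 14.4% in the lower direction. Because AKR1B10 was picked on this contrast, nothing is read from these counts.

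Between genes, levels can be set side by side only per length, here as normalized counts per kilobase of the longest annotated transcript. In NT the order was AKR1A1 (1594 ± 286), AKR1B1 (1079 ± 171), AKR1C3 (58.5 ± 3.51), AKR1B10 (6.80 ± 2.58), AKR1C2 (4.87 ± 0.96) and AKR1C1 (1.46 ± 0.65), with AKR1B15 at 0. Of the neighbours in this order, only AKR1B10 and AKR1C2 had ranges that overlapped in NT, while with the length of the canonical transcript AKR1A1 and AKR1B1 overlapped too. In OXA AKR1B10 reached 56.8 ± 10.5 per kilobase, between 45.8 and 66.6, and overlapped AKR1C3, which had 61.0 ± 4.51, between 56.2 and 65.2. AKR1C2, at 2.27 ± 1.09, and AKR1C1, at 0.96 ± 0.41 per kilobase, also overlapped in OXA. The scale depends on the length chosen, and with the mean transcript length in place of the longest AKR1A1 was at 3327 and AKR1C1 at 4.16 per kilobase in NT. With that length AKR1C2 stood above AKR1B10 in NT, and AKR1B10 above AKR1C3 in OXA. With the canonical length AKR1C3 had 72.2 ± 5.34 per kilobase in OXA, and its lowest library (66.597) was just above the highest of AKR1B10 (66.591).

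**Figure D2:**
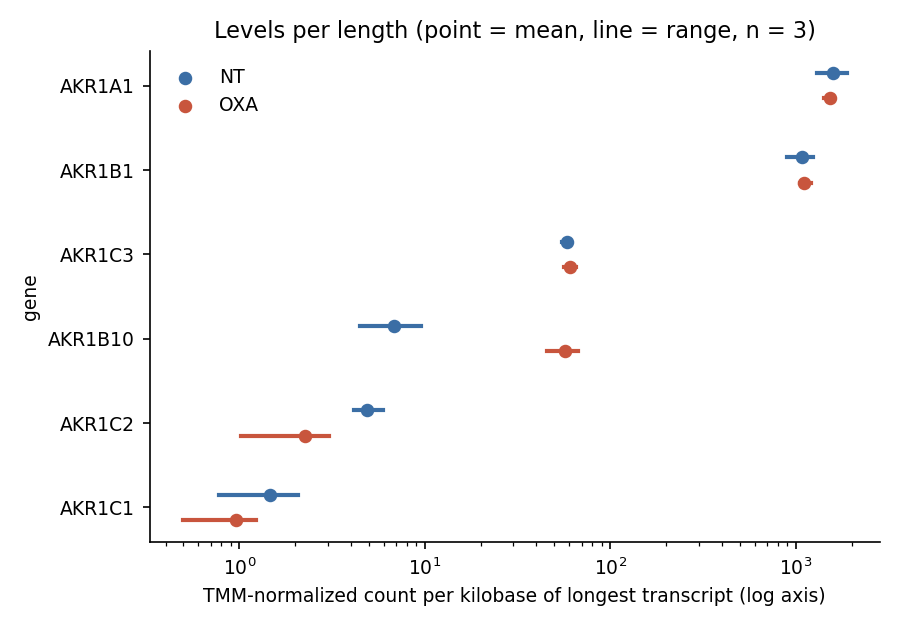
Normalized counts per kilobase of the longest transcript (horizontal log axis) of the 6 detected members (vertical axis), NT in blue and OXA in red, with points at the mean and lines over the range of 3 libraries. AKR1B10 moves from 6.80 beside AKR1C2 to 56.8 beside AKR1C3, while the lines of AKR1A1, AKR1B1 and AKR1C3 in the 2 groups overlap.

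AKR1B10 held a small share of the family in both groups. The normalized counts of the 7 members summed to 5100.2 ± 857 in NT and 5109.9 ± 340 in OXA. AKR1B10 made up 0.215 ± 0.0648% of the counts of the family in NT and 1.80 ± 0.284% in OXA. AKR1A1 took 56.8 ± 0.724% and 54.2 ± 1.06% of them, and AKR1B1 40.9 ± 0.645% and 42.0 ± 0.851%. The transcripts of AKR1A1 and AKR1B1 thus held nearly all of the family's reads in both groups.

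The remaining aldo-keto reductases were read from a list of 10 genes. Of these, AKR1C4 and the pseudogene AKR1C8P had 0 counts in all libraries, AKR1D1, the bile acid reductase, had 1 count in OXA library 1 alone, and AKR7L had 2 or 3 counts in each library. Of the 6 that passed the filter, 1 had an unadjusted p under 0.05. By edgeR, by DESeq2, by limma-voom or with the replicate block 0 were called higher and 0 lower. Of all genes edgeR called 2.78% higher and 2.29% lower, or 12.1% and 10.9% with the block. Their median log2FC was -0.03, beside 0.02 over all genes tested.

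AKR1E2, an enzyme of sugar metabolism near the AKR1C genes, had 57, 51 and 64 raw counts in NT against 37, 39 and 50 in OXA. Normalized counts of 56.6 ± 3.08 and 42.4 ± 2.26 did not overlap, but the difference did not pass the test (log2FC -0.41 ± 0.20 SE, adjusted p in edgeR = 0.278). KCNAB1, a potassium channel subunit with the aldo-keto reductase fold, had 42.9, 32.2 and 65.7 normalized counts in NT against 29.2, 26.2 and 27.6 in OXA, again with no overlap and no call (log2FC -0.77 ± 0.31 SE, adjusted p in edgeR = 0.206). AKR7A2, which reduces succinic semialdehyde and aflatoxin aldehydes, had 2147 ± 443 normalized counts in NT against 2078 ± 142 in OXA (log2FC -0.05, adjusted p in edgeR = 0.897). For AKR7A3 the log2FC was -0.01, for KCNAB2 0.25 and for KCNAB3 0.08, with edgeR adjusted p-values of 0.994, 0.561 and 0.932.

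Pathways that meet AKR1B10 in metabolism were read from 4 further lists, written with earlier results of these data known. Retinal is a main substrate of AKR1B10, and of 27 genes of retinoid metabolism and signalling 18 passed the filter, 2 were called higher and 0 lower, beside 2.78% and 2.29% of all genes. DHRS3, which like AKR1B10 reduces retinal to retinol, had 451.8, 605.9 and 560.3 normalized counts in NT against 1012, 1196 and 1075 in OXA. All OXA libraries were above all NT libraries (log2FC 1.02 ± 0.14 SE, adjusted p in edgeR = 0.00987). ALDH1A3, which oxidises retinal to retinoic acid, had 8172, 8073 and 10610 normalized counts in NT against 16020, 14992 and 19568 in OXA. Its groups did not overlap either (log2FC 0.91 ± 0.15 SE, adjusted p in edgeR = 0.0174). An unadjusted p under 0.05 was found for 6 of the 18, and the median log2FC was 0.13. DESeq2 called 3 higher and 1 lower, limma-voom 2 higher and 0 lower, and edgeR with the replicate block 5 higher and 2 lower, beside 12.1% and 10.9% of all genes.

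Against the AKR1C enzymes stand 31 genes of steroid and prostaglandin metabolism, of which 27 passed the filter, 1 was called higher and 0 lower, a share near the 2.78% and 2.29% of all genes. PTGES, the inducible synthase of prostaglandin E, had 383, 526 and 586 normalized counts in NT against 936, 965 and 1018 in OXA. The groups were far apart (log2FC 0.96 ± 0.16 SE, adjusted p in edgeR = 0.0209). An unadjusted p under 0.05 was reached by 7 of the 27, DESeq2 called 1 higher and 1 lower, limma-voom 1 higher and 0 lower, and edgeR with the replicate block 6 higher and 4 lower, where all genes had 12.1% and 10.9%. The median log2FC of the list was 0.05.

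Of 23 other enzymes that reduce carbonyls or oxidise aldehydes, 21 passed the filter, 1 was called higher and 1 lower, where 2.78% and 2.29% of all genes were. TP53I3, a quinone oxidoreductase induced by p53, had 178, 248 and 302 normalized counts in NT against 1714, 1705 and 1769 in OXA. It was the largest rise of the list (log2FC 2.83 ± 0.19 SE, adjusted p in edgeR = 0.00109). ALDH5A1, the mitochondrial succinic semialdehyde dehydrogenase, fell from 1217 ± 106 to 813 ± 35.9 normalized counts (log2FC -0.58 ± 0.11 SE, adjusted p in edgeR = 0.0259). With the replicate block 4 were called higher and 4 lower (all genes 12.1% and 10.9%), and the median log2FC of the list was 0.04.

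The call of TP53I3 was kept in each of the 6 fits that left out 1 library. DHRS3 was called in 2 of them, without NT library 1 or NT library 2, and had an edgeR adjusted p of at most 0.0574 in the others. ALDH1A3 and PTGES were called in 2, without NT library 1 or NT library 3, with edgeR adjusted p-values of up to 0.0773 and 0.095 otherwise. ALDH5A1 was called in 2, without NT library 1 or NT library 2, and otherwise its adjusted p in edgeR reached 0.139. It also missed the threshold with the gene-specific factors of the deposited scale (edgeR adjusted p = 0.0543) and was called in the 7 other settings. TP53I3, DHRS3, ALDH1A3 and PTGES were called in all 8 other settings. The log2FCs of these 5 genes kept their sign in every fit without a library. NT library 1 was the lowest NT library for TP53I3, DHRS3 and PTGES, and without it their log2FCs were 2.65, 0.91 and 0.81, with 0.85 for ALDH1A3 and -0.60 for ALDH5A1.

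**Figure D3:**
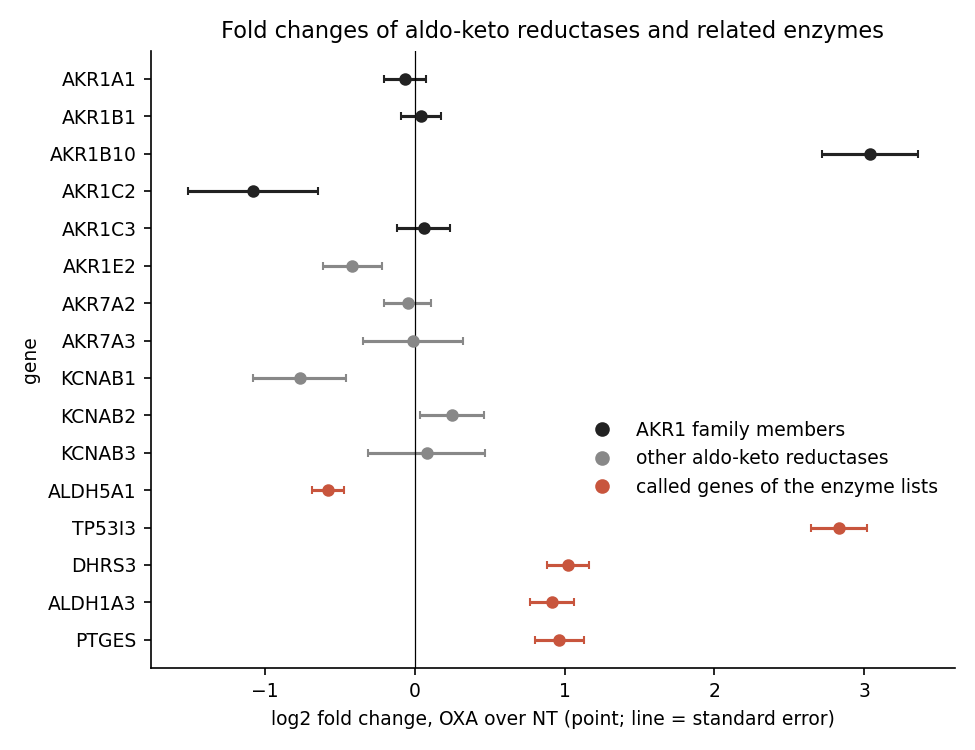
Log2 fold change of OXA over NT (horizontal axis, point) with its standard error (line) for the 5 tested AKR1 family members in black, the 6 other tested aldo-keto reductases in grey and the 5 called genes of the other enzyme lists in red. AKR1B10 at 3.04 and TP53I3 at 2.83 lie far to the right, DHRS3, PTGES and ALDH1A3 near 1 (1.02, 0.96 and 0.91), and AKR1A1, AKR1B1 and AKR1C3 at 0 within their errors.

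AKR1B10 and the AKR1C genes are textbook targets of NRF2, and 34 genes of this pathway, its regulators and its targets, were set beside them. All 34 passed the filter, and 3 had an unadjusted p under 0.05. At an adjusted p under 0.05 edgeR called 0 higher and 0 lower, which is near the 2.78% and 2.29% of all genes. DESeq2 called 1 higher, HMOX1, and 0 lower, and limma-voom called 0. NFE2L2, which encodes NRF2, had 5934, 5123 and 5438 normalized counts in NT against 5865, 5088 and 5599 in OXA. The groups were nearly the same (log2FC 0.01 ± 0.096 SE, adjusted p in edgeR = 0.984). KEAP1, its inhibitor, had a log2FC of 0.27 ± 0.20 SE (adjusted p in edgeR = 0.496).

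NQO1, the quinone reductase most often used to read NRF2 activity, had 37787, 32583 and 52849 normalized counts in NT against 27346, 23751 and 40863 in OXA. The groups overlapped, but each OXA library was below the NT library of its number (log2FC -0.42 ± 0.24 SE, adjusted p in edgeR = 0.365, or 0.00498 with the replicate block). HMOX1, the heme oxygenase, had 643, 813 and 1083 normalized counts in NT against 1074, 1287 and 1460 in OXA, each OXA library above the NT library of its number (log2FC 0.59 ± 0.20 SE, adjusted p in edgeR = 0.143, or 0.00838 with the block). These are 2 of the 34 genes of the list, and whether NRF2 activity changed was not tested. Without NT library 1, the lowest NT library for HMOX1, the log2FC of HMOX1 was 0.43 and that of NQO1 -0.48.

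Among the other genes looked at whatever their values, GCLM, which supports glutathione synthesis, had a log2FC of 0.15 and TXNRD1, the thioredoxin reductase, of 0.17 (edgeR adjusted p = 0.768 and 0.615, or 0.171 and 0.0622 with the block). SRXN1, the sulfiredoxin, had 0.20, ME1, the malic enzyme, 0.34 and OSGIN1 0.63 as log2FCs, with edgeR adjusted p-values of 0.512, 0.195 and 0.522 that fell to 0.0347, 0.0249 and 0.0377 with the block. SLC7A11, the cystine transporter, had a log2FC of -0.45 (adjusted p in edgeR = 0.591, or 0.033 with the block). With the block, 10 of the 34 genes were called higher and 4 lower, beside 12.1% and 10.9% of all genes. The median log2FC of the 34 was 0.13, with 22 above and 12 below 0, beside 0.02 over all genes tested.

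**Figure D4:**
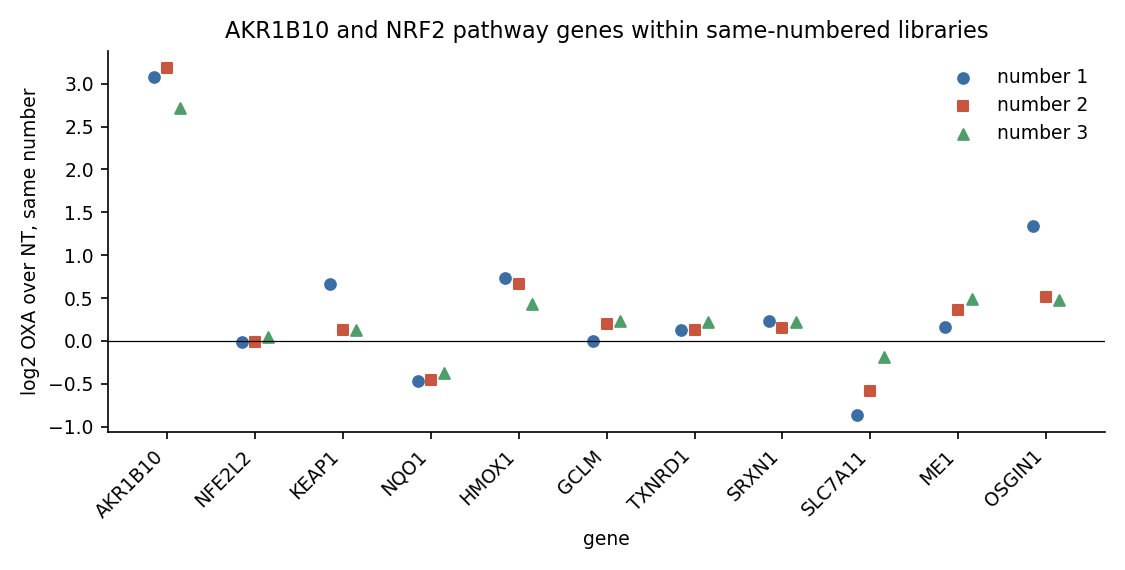
Log2 ratio of OXA over NT (vertical axis) between libraries of the same number, 1 point for each of the 3 numbers, for AKR1B10 and 10 genes of the NRF2 pathway (horizontal axis). AKR1B10 lies at 3.08, 3.18 and 2.72, NQO1 at -0.47, -0.46 and -0.37, HMOX1 at 0.74, 0.66 and 0.43, and NFE2L2 near 0.

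Genes whose profile over the 6 libraries was like that of AKR1B10 were found by the root mean square difference in log2 level relative to the NT mean. Among the closest were TP53I3 (0.323), CDKN1A (0.328), ABCA12 (0.490), a lipid transporter of the epidermis, and INPP5D (0.537), an inositol phosphatase. They were picked for this likeness, and their levels are given here with no test. In NT library 3 AKR1B10, TP53I3 and CDKN1A all had their highest NT value, as had AKR1A1, AKR1B1 and AKR1C3. The lowest NT value was in library 2 for AKR1B10 and in library 1 for TP53I3 and CDKN1A. In OXA library 3 AKR1B10 and TP53I3 had their highest OXA value and CDKN1A its lowest. ABCA12 averaged 40.2 ± 2.39 normalized counts in NT against 430.3 ± 68.4 in OXA, and INPP5D 95.0 ± 7.95 and 506 ± 58.9.

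**Figure D5:**
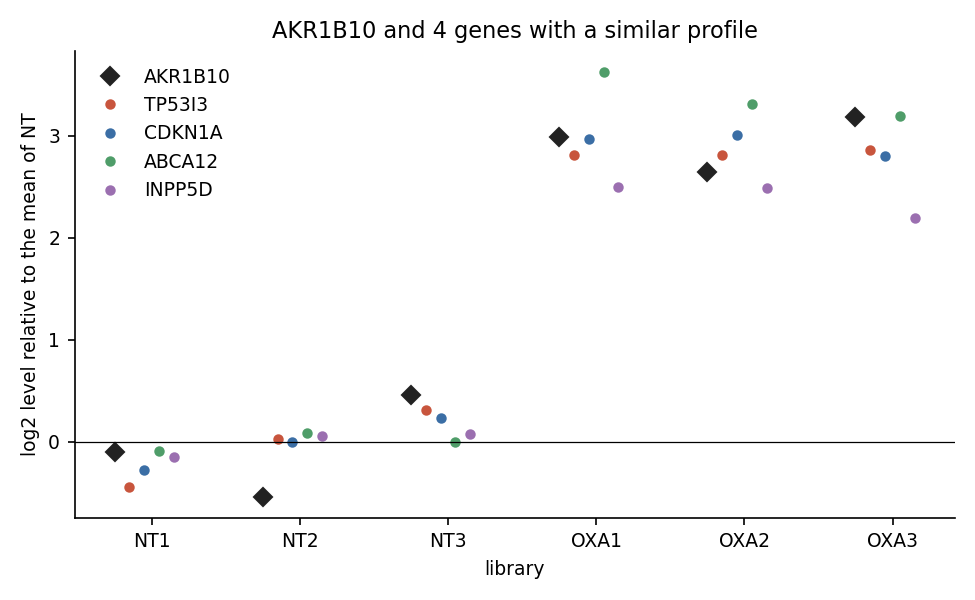
Log2 level relative to the mean of NT (vertical axis) in each library (horizontal axis) for AKR1B10 (black diamonds) and 4 genes of similar profile (coloured points). AKR1B10 goes from -0.54 to 0.46 in NT to 2.65 to 3.18 in OXA, and INPP5D lies lowest in OXA.

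The genes next to the AKR1 clusters were read out to 500.0 kb on either side, a distance set after the values of the members had been seen. Around the AKR1B genes 9 other genes were in the table, of which 7 passed the filter. Beside 2.78% of all genes tested, 1 of them was called higher. This was CALD1, the actin-binding caldesmon, which starts 217 kb beyond the start of AKR1B10 and had 5084, 4454 and 4744 normalized counts in NT against 6617, 6205 and 6117 in OXA. Its groups did not overlap, but the difference was small beside that of AKR1B10 (log2FC 0.41 ± 0.087 SE, adjusted p in edgeR = 0.0426). CALD1 was called in 1 of the 6 fits without a library, which lacked NT library 1, and in 5 of 8 other settings, DESeq2 and limma-voom among them, with adjusted p-values from 0.00651 in edgeR with the replicate block to 0.0615. BPGM, the nearest tested gene on the side of AKR1B15, had a log2FC of 0.12 (adjusted p in edgeR = 0.666). On the side of AKR1B1 the nearest tested gene was AC009275.1, with 28.6, 36.4 and 33.8 normalized counts in NT against 59.5, 48.0 and 53.5 in OXA, where the groups did not overlap (log2FC 0.70 ± 0.22 SE, adjusted p in edgeR = 0.120). The 7 log2FCs lay between -0.49 and 0.70, and 2 had an unadjusted p under 0.05.

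Around the AKR1C genes 13 other genes were in the table and 3 passed the filter, AKR1E2, TUBAL3 and NET1. None was called, where 2.78% of all genes were called higher and 2.29% lower, and 0 had an unadjusted p under 0.05 in edgeR. With the replicate block NET1, an exchange factor for RhoA, was called lower (log2FC -0.24, adjusted p in edgeR = 0.0294), beside 10.9% of all genes.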

How the data were processed

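RNA-seq was performed on 3 NT and 3 OXA libraries. Per the labels, the tools were Trimmomatic 0.32, STAR 2.7.5b, RSEM 1.3.3 and DESeq2 2.13 with the GRCh38 build; which of them made the counts, the strand setting and the gene annotation are not given in the sources used here. The table the authors deposited holds, per gene and library, whole-number estimated counts and a normalized signal. That signal is the count times a factor that differs between genes and libraries, and it served for an alternative. No column was without a sample (0).

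Genes with a minimum count of 10 in filterByExpr and a total of 15 were kept (13727). TMM scaling, edgeR's quasi-likelihood test without covariates and Benjamini-Hochberg adjustment over all genes followed (R 4.3.3, edgeR 4.0.16, limma 3.58.1, DESeq2 1.42.0), with calls at an adjusted p under 0.05. On simulated libraries with 200 changed genes the fit called all 200, with 14 false among 214 calls. The simulation had no pairing, no library that stood apart and the same spread for all genes. Genes of low count were not changed in it, so it does not show how the fit does on such data. Neither labels nor methods state what a replicate number stands for, so p-values measure the spread between these libraries, which may be technical. Deviations of same-numbered libraries from their group means correlated at 0.51, 0.50 and 0.28, all above the limit of 0.1. Those of different numbers correlated between -0.44 and 0.083. A fit with the replicate block was therefore given as an alternative. Unless the block is named, p-values come from the fit without it, which ignores this pairing. PCR duplicates cannot be told from molecules, and floors of 3 counts cover counting error only.

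Named were the 7 members, the other aldo-keto reductases, called genes of the lists (at most 5 in each direction), 10 NRF2 pathway genes whatever their values, the 5 genes of most similar profile (pseudocount 1) and CDKN1A. Of the 5 genes of similar profile, 1 is not reported here. Other genes were named after their values were seen. Members and lists were chosen with earlier results of these data known. Alternatives were DESeq2 size factors, library totals, no or a stricter filter, DESeq2, limma-voom, the replicate block, the factors of the deposited scale, each library left out, and other transcript lengths, of which the canonical transcript was added after seeing the data. Per-length levels use GENCODE release 44, and sequences RefSeq.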

Additional observations from a re-analysis of the deposited data

How the results depend on the processing

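Under all 8 other settings and all 6 fits without a library, 1 member was called higher in OXA, AKR1B10, and 0 lower. AKR1B10 was chosen on this contrast in these libraries, so this says nothing of how stable its difference is. The log2 fold changes without 1 library ran from -0.19 to 0.04 for AKR1A1, from -0.07 to 0.12 for AKR1B1, from 2.79 to 3.34 for AKR1B10, from -1.31 to -0.75 for AKR1C2 and from -0.015 to 0.11 for AKR1C3. AKR1C1 and AKR1B15 have no fitted value, being under the filter (-0.60 and -0.59 for AKR1C1 in the 2 settings without it), and with the stricter filter AKR1C2 has none. Over all genes, 381 were called higher and 315 lower. DESeq2 called 608 and 567, the replicate block 1664 and 1493, the factors of the deposited scale 241 and 200, and library totals as the only scaling 511 lower. Without 1 library the numbers ran from 66 to 623 higher and from 19 to 571 lower, lowest without OXA library 1 and highest without NT library 1. With the replicate block, the NRF2 pathway had 10 genes higher and 4 lower, other carbonyl and aldehyde enzymes 4 and 4, retinoid enzymes 5 and 2, and steroid and prostaglandin enzymes 6 and 4. The block changed no call of a member or of the other aldo-keto reductases. DESeq2 called 1 NRF2 pathway gene higher, 1 retinoid and 1 steroid or prostaglandin enzyme lower, and with the factors of the deposited scale 0 carbonyl enzymes were lower. Without 1 library, 0 to 1 NRF2 pathway genes and 0 to 1 carbonyl enzymes were lower, and 0 to 3 retinoid and 0 to 1 steroid or prostaglandin enzymes were higher. The causes were not tested. Counts of 3 to 21 in AKR1C1 and AKR1C2 limit what can be said of them.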

Other observations

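Some genes of the lists were too low for the test or did not pass it, and are named after their values were seen. CBR1, a carbonyl reductase that shares substrates with AKR1B10, had 1 count in NT library 1 and 0 in the other 5 libraries. CBR3, its close relative, averaged 53.6 ± 4.63 (SD, n = 3) in NT against 44.8 ± 7.18 normalized counts in OXA. DHRS9, a dehydrogenase of retinol and steroids, was under the filter, at 0.64 ± 0.56 in NT against 6.85 ± 1.72 normalized counts in OXA, where the groups did not overlap. HPGD, which degrades prostaglandins, had 35.1 ± 5.85 normalized counts in NT against 15.1 ± 5.01 in OXA, with no overlap (log2FC -1.20 ± 0.33 SE, adjusted p in edgeR = 0.0795).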
